A study of Mus musculus with 12 samples.

Results

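The genes of ketone body use were followed in a map of histone H3 trimethylated at lysine 4 (H3K4me3), a modification found at active promoters, in sorted nuclei of cardiomyocytes (CMs), the contractile heart cells, of adult mice. The 4 genes were Slc16a1, Bdh1, Oxct1 and Acat1, and their peaks were those that carry the name of one of them in the table of union peaks. This rule found 3 of 15848 union peaks, 1 each for Slc16a1, Oxct1 and Acat1 and 0 for Bdh1. All 3 passed the filter on low values, a mean normalized count of at least 10 over the 6 libraries, which 15039 peaks passed. For Bdh1, the peaks within 50000 bases of the gene were examined instead.

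Chromatin came from CM nuclei sorted by flow cytometry, and H3K4me3 was measured by ChIP–seq, the sequencing of immunoprecipitated chromatin, in 3 libraries of each genotype. The CtrlCre mice carried αMHC-Cre, a Cre recombinase transgene driven by the promoter of the CM myosin gene Myh6, and wild-type Cpt1b alleles (αMHC-Cre pos/+; Cpt1b +/+). The Cpt1bcKO mice carried the same transgene and floxed Cpt1b alleles (αMHC-Cre pos/+; Cpt1b fl/fl), so that Cpt1b, which admits long-chain fatty acids to mitochondria, is inactivated in CMs from embryonic stages on. Both genotypes therefore share the Cre transgene and the C57BL/6 background, and the labels state neither an age beyond adult nor whether animals were pooled in a library. Input libraries, 3 per genotype, were not analysed here.

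Ketone bodies are made in the liver from acetyl-CoA and burned in organs such as the heart. The transporter MCT1, encoded by Slc16a1, carries monocarboxylates such as lactate, acetoacetate and β-hydroxybutyrate across the cell membrane. In mitochondria, BDH1 oxidizes β-hydroxybutyrate to acetoacetate, SCOT (encoded by Oxct1) moves a CoA from succinyl-CoA onto acetoacetate, and the thiolase ACAT1 splits the acetoacetyl-CoA into acetyl-CoA for the Krebs cycle. The comparison of genotypes asks whether H3K4me3 at these genes differs once CMs cannot import long-chain fatty acids into mitochondria.

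H3K4me3 at the 3 named peaks did not pass the test between genotypes, with intervals that each included no change. The peak inside Bdh1, which carries the name of an antisense gene, was higher in Cpt1bcKO than in CtrlCre CMs by 1.54-fold (95% interval 1.27 to 1.86, n = 3 per genotype). Values were scaled between libraries, so these differences are relative to the other peaks and do not measure the total level of the mark. By western blot, the paper reported less total H3K4me3 in Cpt1bcKO CM nuclei.

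Promoter windows of the RefSeq table (build GRCm38.p6, from 250 bases before to 50 bases after a start) were found for 3 of the 4 genes. They are shown to set the starts that lie under a peak beside a start of Bdh1 that does not. The window of Slc16a1 lies at chr3:104638414-104638713, that of Oxct1 at chr15:4026178-4026477, that of the upstream start of Bdh1 at chr16:31422047-31422346 and that of its inner start at chr16:31428503-31428802, all on the plus strand. Capitals mark a GC box, the motif bound by Sp factors, searched as GGGCGG on both strands and hence also as CCGCCC.

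Slc16a1: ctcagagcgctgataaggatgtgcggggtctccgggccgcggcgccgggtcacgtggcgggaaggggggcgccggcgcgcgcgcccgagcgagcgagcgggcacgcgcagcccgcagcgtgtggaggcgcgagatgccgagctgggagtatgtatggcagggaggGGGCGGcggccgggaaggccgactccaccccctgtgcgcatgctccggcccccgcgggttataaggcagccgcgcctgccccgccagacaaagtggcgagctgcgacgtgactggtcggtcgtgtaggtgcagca
Oxct1: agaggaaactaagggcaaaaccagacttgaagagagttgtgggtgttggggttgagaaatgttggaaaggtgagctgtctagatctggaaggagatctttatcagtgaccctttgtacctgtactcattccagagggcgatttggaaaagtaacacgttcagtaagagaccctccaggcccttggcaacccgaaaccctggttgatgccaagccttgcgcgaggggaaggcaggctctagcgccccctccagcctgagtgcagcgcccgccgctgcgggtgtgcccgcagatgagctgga
Bdh1 upstream start: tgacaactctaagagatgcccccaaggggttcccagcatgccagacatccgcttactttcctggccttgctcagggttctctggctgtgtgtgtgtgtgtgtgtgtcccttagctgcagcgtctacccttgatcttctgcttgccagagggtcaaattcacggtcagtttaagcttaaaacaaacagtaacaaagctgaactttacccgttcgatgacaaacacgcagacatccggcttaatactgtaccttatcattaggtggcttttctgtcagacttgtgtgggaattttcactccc
Bdh1 inner start: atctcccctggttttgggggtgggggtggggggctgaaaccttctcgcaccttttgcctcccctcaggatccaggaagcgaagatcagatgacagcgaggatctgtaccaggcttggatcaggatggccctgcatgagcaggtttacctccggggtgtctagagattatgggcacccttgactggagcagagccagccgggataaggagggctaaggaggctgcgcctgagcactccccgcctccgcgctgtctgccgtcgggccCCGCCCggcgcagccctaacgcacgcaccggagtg

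The windows of Slc16a1, Oxct1 and the inner start of Bdh1 lay with all 300 bases in a peak, whereas the window of the upstream start of Bdh1 overlapped 0 peaks. The Slc16a1 window held 42 CpG dinucleotides and 73.7% G and C, which put it at percentile 97.0 of 32851 RefSeq promoters for CpG number. The inner Bdh1 window held 17 CpG (percentile 68.6) and 63.7% G and C. The Oxct1 window held 11 CpG and 55.3% G and C, at percentile 58.6. The upstream Bdh1 window, without a peak, had the fewest of these 4, with 7 CpG and 48.3% G and C, against medians of 7 CpG and 52.7% over all promoters. A GC box was present in the windows of Slc16a1 and of the inner start of Bdh1, and 35.7% of all promoters hold one. The CCAAT box was searched on both strands too and matched none of these 4 windows, against 37.4% of all promoters. The same held for the TATA box, spelled TATAAA and held by 13.6%, and for the unit bound by nuclear receptors, spelled AGGTCA and held by 16.3%. A match or its absence describes letters in the window only.

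Each named peak covered the start of its gene. The Slc16a1 peak (gene ENSMUSG00000032902; mm10, chromosome 3, 104637312 to 104642510) was 5198 bases wide, reached from 1356 bases upstream to 3842 bases downstream of the start at 104638668, and held exon 1 of 5. Most of it, 70.8%, was intron. The Oxct1 peak (ENSMUSG00000022186; chromosome 15, 4025110 to 4029198) was 4088 bases wide, from 1273 bases upstream to 2815 bases downstream of the start of Oxct1-201, and also held the start of BC037032, a noncoding transcript on the other strand. The Acat1 peak (ENSMUSG00000032047; chromosome 9, 53608386 to 53610676, minus strand) was 2290 bases wide, from 294 bases upstream to 1996 bases downstream of the start of Acat1-201, with exon 1 of 12. All 3 were in the broad class, defined here as wider than 2222 bases, the upper quartile of the tested peaks. Their width percentiles among the tested peaks were 97.0, 94.2 and 76.4. The paper ranked genes by the width of their peaks in CtrlCre CMs, so its classes need not match, and Acat1 lay close to the limit. In each, more bases lay downstream of the start than upstream, and the highest point of the signal was 183, 418 and 231 bases downstream of it.

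The only union peak within 50000 bases of Bdh1 (ENSMUSG00000046598; chromosome 16, 31422280 to 31458901, plus strand) lay inside the gene, at 31428318 to 31430479. It was 2161 bases wide, in the medium class. It covered the starts of Bdh1-203 at 31428748, Bdh1-205 at 31428752, Bdh1-207 at 31428792 and Bdh1-202 at 31429299, with its highest point 253 bases downstream of the start of Bdh1-203. The table assigns it to ENSMUSG00000086645, which is Gm15743 in the GENCODE vM21 annotation, an antisense gene on the minus strand with a start at 31429776 in the same peak. A chromatin peak has no strand, so the signal of Bdh1 and of its antisense partner cannot be told apart. The start of Bdh1-201 at 31422280 lay 6038 bases before the peak.

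**Figure D1:**
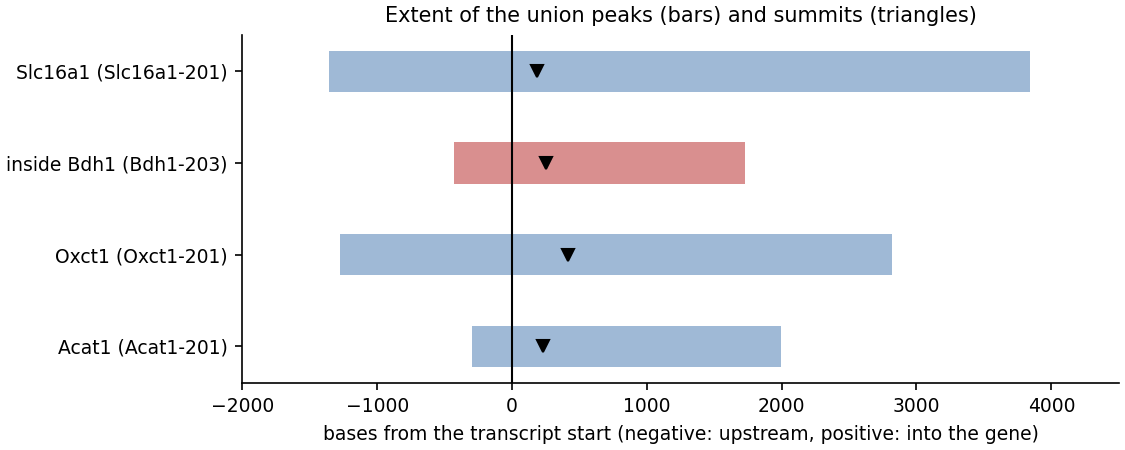
Extent of the peaks over Slc16a1, Oxct1, Acat1 and inside Bdh1, drawn along the distance from the annotated start in bases, with negative values upstream and the highest point of the signal marked. The bars run from 1356 bases upstream to 3842 bases downstream at Slc16a1, and all 4 reach farther downstream than upstream.

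Transport was examined first. At Slc16a1 the normalized H3K4me3 count was 381, 416 and 435 in CtrlCre replicates 1 to 3 and 388, 372 and 376 in Cpt1bcKO replicates 1 to 3. The means were 411 ± 27.4 and 379 ± 8.33 (SD, n = 3 each). The Cpt1bcKO values lay close together and inside or below the control range, and the genotypes overlapped. The log2 difference, Cpt1bcKO minus CtrlCre, was -0.11 with a standard error (SE) of 0.09 and an adjusted p of 0.694 in limma. Its 95% interval of -0.31 to 0.08 corresponds to a fold of 0.807 to 1.06. An exact two-sided permutation test gave p = 0.2, where 3 libraries against 3 cannot go below 0.1. Slc16a1 varied little within genotypes, with an SD of 0.0722 on the log2 scale, at percentile 8.12 among 10617 peaks that averaged 50 or more (median 0.146). The others varied more than that median. Their SD was 0.216 (percentile 80.4) at the peak inside Bdh1, 0.184 (68.8) at Oxct1 and 0.180 (67.4) at Acat1.

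Among the enzymes in order of the pathway, Bdh1 comes first. The peak inside it had normalized counts of 130, 95 and 127 in CtrlCre and 176, 160 and 204 in Cpt1bcKO replicates 1 to 3. Every Cpt1bcKO library lay above every control library, as was the case in either direction at 16.3% of all tested peaks. The means were 117 ± 19.4 and 180 ± 22.3 (SD, n = 3 each), or 54.3 ± 8.98 and 83.3 ± 10.3 per kilobase of peak. The log2 difference was 0.62 (SE 0.13, 95% interval 0.35 to 0.89) with an unadjusted p of 0.000102 and an adjusted p of 0.00801 in limma. Calls at this threshold in the higher direction made up 1.11% of all tested peaks. Without Cpt1bcKO replicate 3, the highest library, the log2 difference was 0.53 and the adjusted p 0.0896 in limma. The call was also lost, at an adjusted p of 0.197, when the variance was not modelled along the mean, a setting under which calls over all peaks dropped from 441 to 43. The exact permutation test gave p = 0.1, the smallest it can give here.

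Oxct1 encodes the enzyme that commits a ketone body to oxidation. Its normalized counts were 239, 232 and 288 in CtrlCre and 263, 270 and 210 in Cpt1bcKO replicates 1 to 3. The highest value was control replicate 3 and the lowest Cpt1bcKO replicate 3, with the other 4 libraries between them. Means of 253 ± 30.5 and 248 ± 32.8 (SD, n = 3 each) gave a log2 difference of -0.03 (SE 0.11, 95% interval -0.27 to 0.20) and an adjusted p of 0.957 in limma. The interval corresponds to a fold of 0.832 to 1.15. The sign rested on those libraries: the log2 difference was 0.06 without control replicate 3 and 0.08 without Cpt1bcKO replicate 3. The exact permutation test gave p = 0.900.

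At Acat1, the thiolase of the last step, normalized counts were 139, 123 and 164 in CtrlCre and 151, 171 and 139 in Cpt1bcKO replicates 1 to 3. The ranges of the genotypes overlapped over most of their length, with means of 142 ± 20.7 and 154 ± 16.2 (SD, n = 3 each). The log2 difference was 0.12 (SE 0.12, 95% interval -0.14 to 0.38, fold 0.908 to 1.30) with an adjusted p of 0.779 in limma. It was 0.02 without CtrlCre replicate 2, 0.04 without Cpt1bcKO replicate 2 and 0.23 without CtrlCre replicate 3. The exact permutation test gave p = 0.500.

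Of the 3 named peaks, 0 passed an unadjusted p under 0.05 in limma, 0 passed the adjusted threshold, and limma-voom on recovered counts also gave 0 and 0. Over all 15039 tested peaks 12.8% passed the unadjusted threshold (5.84% higher and 6.98% lower in Cpt1bcKO) and 2.93% the adjusted threshold (1.11% higher and 1.82% lower). The genotypes did not overlap at 0 of the 3 named peaks, against 16.3% of all tested peaks.

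**Figure D2:**
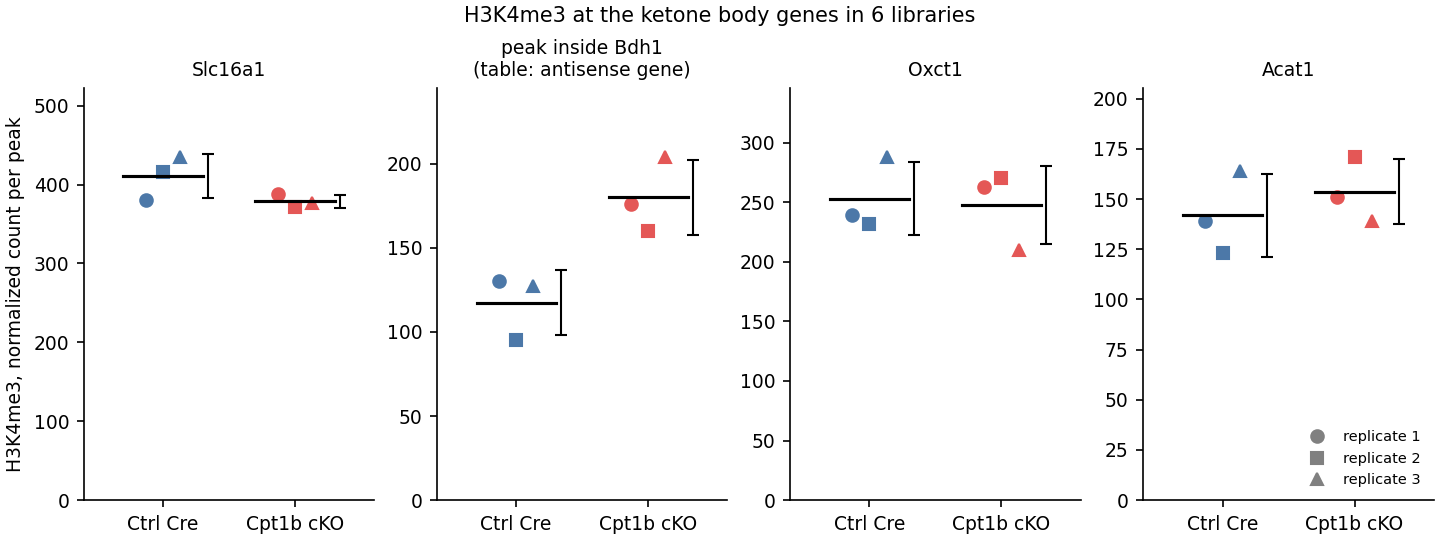
Normalized H3K4me3 count (vertical axis) in each CtrlCre and Cpt1bcKO library at the named peaks and at the peak inside Bdh1, with points for libraries and lines for the mean and SD. The genotypes overlap at Slc16a1, Oxct1 and Acat1, whereas the 3 Cpt1bcKO libraries at the peak inside Bdh1 (160 to 204) lie above the controls (95 to 130).

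**Figure D3:**
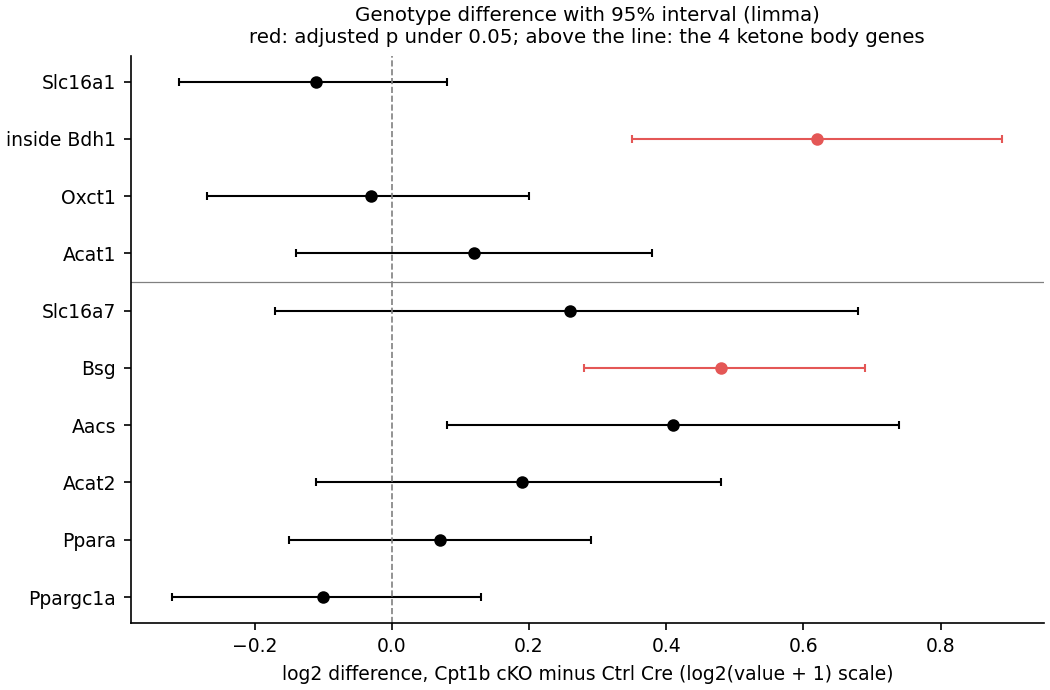
Log2 difference of H3K4me3 (Cpt1bcKO minus CtrlCre, horizontal axis) with its 95% interval from limma at the named peaks, the peak inside Bdh1 and the pathway peaks. The interval of the peak inside Bdh1, 0.35 to 0.89, lies above 0, and those of Slc16a1, Oxct1 and Acat1 include 0.

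The peak inside Bdh1 was also set against each named peak within the same library, a measure that does not depend on the scaling between libraries. This measure was chosen after the values were seen. Relative to Slc16a1 the ratio of normalized counts was 0.341, 0.228 and 0.292 in CtrlCre and 0.454, 0.430 and 0.543 in Cpt1bcKO replicates 1 to 3. Relative to Oxct1 it was 0.544, 0.409 and 0.441 against 0.669, 0.593 and 0.971. Relative to Acat1 the ranges of these rounded values almost touched, with a highest control value of 0.935 and a lowest Cpt1bcKO value of 0.936. Recovered counts, inside Bdh1 over Acat1, were 155 over 165 in CtrlCre replicate 1 and 246 over 263 in Cpt1bcKO replicate 2. These reverse that order, so the genotypes overlap relative to Acat1. On the rounded values the ratios were higher in Cpt1bcKO by 0.74, 0.66 and 0.51 on the log2 scale. Each exact permutation test gave p = 0.1, also after adjustment over the 3 ratios. Relative to Acat1 this p rests on the rounding, as do the adjusted values, and the test was not repeated on recovered counts. All 3 ratios share the peak inside Bdh1, so they are not separate results.

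Levels between genes were compared per kilobase of peak, as means over the 6 libraries. Slc16a1 had the highest level at 75.9 (range 71.6 to 83.7), followed by the peak inside Bdh1 at 68.8 (44.0 to 94.4), Acat1 at 64.6 (53.7 to 74.7) and Oxct1 at 61.2 (51.4 to 70.5). Neighbours in this order overlapped in their ranges at every step. Slc16a1 exceeded Acat1 and Acat1 exceeded Oxct1 in 4 of 6 libraries. These levels per kilobase were at percentiles 65.2, 58.3, 54.0 and 50.6 of the tested peaks. By the total over the peak, which grows with its width, Slc16a1 was at percentile 98.3 and Oxct1 at 92.0, while the peak inside Bdh1 and Acat1 were at 69.4 and 69.1.

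Within 50000 bases of the 4 genes there were 7 other peaks than the named ones. Of these 7, 1 had an unadjusted p under 0.05 in limma, the peak inside Bdh1, against 12.8% of all tested peaks. The log2 differences of the other 6 ran from -0.25 to 0.20. Beyond the 3′ end of Acat1, the peak shared by the starts of Atm and Npat had mean normalized counts of 220 in CtrlCre and 224 in Cpt1bcKO, a log2 difference of 0.04 with an unadjusted p of 0.724 in limma. Beside Oxct1, the peak at AW549877 had a log2 difference of 0.20 (unadjusted p = 0.160 in limma) and that of Fbxo4 one of -0.02.

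A list of 19 other genes of ketone body transport, use and regulation had 6 genes with a tested peak of their name. Of these 6 peaks, 2 (Bsg and Aacs) were higher in Cpt1bcKO at an unadjusted p under 0.05 in limma and 0 were lower, or 33.3% against 12.8% of all tested peaks. After adjustment 1 remained, Bsg, against 2.93% of all tested peaks in either direction and 1.11% in the higher direction. The median log2 difference over the 6 peaks was 0.22, against 0.006 over all tested peaks, and 5 of 6 were above 0. With so few peaks these counts describe the list and no more.

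Among transport genes, Bsg encodes basigin, the partner that brings MCT1 to the cell surface. The Bsg peak (chromosome 10, 79704027 to 79710502) had normalized counts of 334, 356 and 289 in CtrlCre and 440, 494 and 434 in Cpt1bcKO replicates 1 to 3. All 3 Cpt1bcKO libraries lay above the controls, a separation seen in either direction at 16.3% of all tested peaks. The means were 326 ± 34.2 and 456 ± 33.0 (SD, n = 3 each). H3K4me3 was 1.40-fold higher (log2 difference 0.48, SE 0.10, 95% interval 0.28 to 0.69), with an adjusted p of 0.00697 in limma that rose to at most 0.0495 on leaving out a library and to 0.186 without a variance trend. The peak of Slc16a7, which encodes the related transporter MCT2, had means of 55.3 and 64.7 and a log2 difference of 0.26 (unadjusted p = 0.229 in limma). The peak of Slc16a3, which encodes the lactate exporter MCT4, was too low to be tested, with means of 2.67 and 7.33.

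Aacs encodes the cytosolic enzyme that turns acetoacetate into acetoacetyl-CoA for lipid synthesis. Its peak had normalized counts of 74, 72 and 109 in CtrlCre and 118, 101 and 115 in Cpt1bcKO replicates 1 to 3. The single overlap came from control replicate 3. The log2 difference was 0.41 (SE 0.16) with an unadjusted p of 0.0168 and an adjusted p of 0.230 in limma, and without that library it was 0.60 with an adjusted p of 0.0477. The unadjusted p of Aacs was over 0.05 without CtrlCre replicate 1 (log2 difference 0.32), CtrlCre replicate 2 (0.30), Cpt1bcKO replicate 1 (0.37) or Cpt1bcKO replicate 3 (0.38), and without a variance trend. Acat2, the cytosolic thiolase, had a log2 difference of 0.19 (unadjusted p = 0.207 in limma). The regulators Ppara, a nuclear receptor for fatty acids, and Ppargc1a, a coactivator of mitochondrial genes, had log2 differences of 0.07 and -0.10 with unadjusted p of 0.504 and 0.376 in limma.

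**Figure D4:**
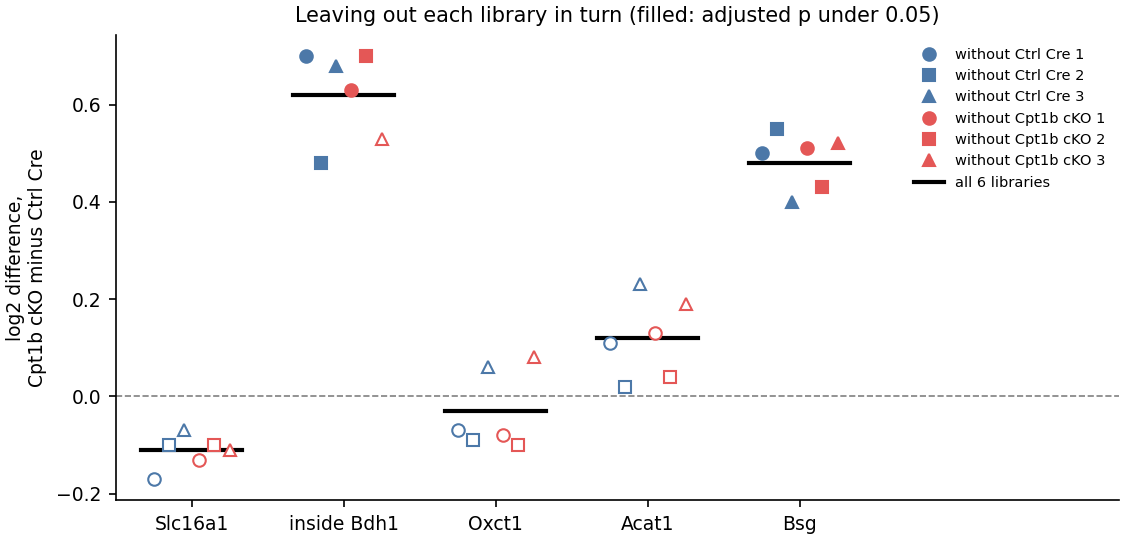
Log2 difference of H3K4me3 (Cpt1bcKO minus CtrlCre) at the named peaks, the peak inside Bdh1 and Bsg with all libraries and with each library left out in turn. The values of Oxct1 lie on both sides of 0, from -0.10 to 0.08, and those of the peak inside Bdh1 run from 0.48 to 0.70.

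Peaks with the most similar course over the 6 libraries, among 10616 others with a mean of at least 50, were sought by Pearson correlation as a description, since all points share their libraries and depth. For Slc16a1 these were Ppp1r3d (0.982) and Mapk1ip1l (0.975), and for Oxct1 they were Trub1 (0.989) and Myoz3 (0.982). For Acat1 they were Jarid2 (0.985) and Znhit3 (0.980), and for the peak inside Bdh1 they were Pcdhgc4 (0.991) and Nckap1 (0.989). A correlation of at least 0.95 was reached by 14 peaks (0.132% of those compared) for Slc16a1, 29 (0.273%) for Oxct1, 56 (0.528%) for Acat1 and 62 (0.584%) for the peak inside Bdh1.

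The libraries held 763133 to 2766416 recovered counts in peaks, with the lowest in CtrlCre replicate 2, where the peak inside Bdh1 rested on 41 counts and a counting error of 15.6%. The Cpt1b peak was higher in Cpt1bcKO (568 to 689 against 407 to 436 normalized counts, adjusted p = 0.00357 in limma) and, as a promoter mark, does not check the deletion. This peak was 9156 bases wide and also held starts of Chkb, Gm44502 and C730034F03Rik. The signal of these genes and that of Cpt1b cannot be told apart in it. Of 8 CM markers 8 had a peak, and their summed level was 7263 to 8880 in CtrlCre and 5320 to 7751 in Cpt1bcKO, with 4 of 9 peaks lower at an unadjusted p under 0.05 (6.98% of all tested peaks) and 1 at the adjusted threshold (1.82%) in limma. Peaks were named for 1 of 6 endothelial markers (Kdr, 39 to 91 against 31 to 51, lower at an unadjusted p under 0.05 and not at the adjusted threshold in limma), 1 of 6 fibroblast markers (Pdgfra, 58 to 69 against 56 to 63), 2 of 4 mural markers (summed 36 to 58 against 26 to 60) and 0 of 5 immune markers. Of 3 hepatocyte markers 1 had a peak (Apoa1, 13 to 33 against 14 to 25), with Alb and Ttr without one. The part of depth and of CM marker level in the differences above was not tested, and fewer nuclei with the mark and less mark per nucleus cannot be told apart in bulk libraries.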

How the data were processed

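H3K4me3 ChIP–seq was performed on FACS-sorted nuclei of adult CMs, with 3 CtrlCre and 3 Cpt1bcKO libraries grouped by their titles. The authors trimmed reads with Trimmomatic (0.39), aligned them to mm10 with STAR (2.6.1d), removed duplicates with Picard (2.21.7), called peaks with MUSIC and merged them into 15848 union peaks. The deposited value per library is a count normalized by the authors with DESeq2 size factors and rounded, treated here as a score, so every difference is relative to the other peaks. The authors also deposited the mean signal per genotype. The deposited log2 fold changes, p-values and adjusted p-values of the authors' comparison and the deposited fraction of each peak in the gene body were not used. The authors named a peak by the nearest promoter within 5000 bases.

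Whole counts were recovered for 15848 of 15848 peaks from the rounded values and unrounded means. The authors counted single-end reads over union peaks with bigWigAverageOverBed, which sums a coverage track. Whether 1 count is 1 read is not given in the sources used here, and errors from counts cover counting error only, 8.06% to 15.2% at the median peak, depending on the library. Peaks with a mean of at least 10 were fitted with limma-trend (limma 3.58.1, R 4.3.3), taking log2(value + 1) as the response and genotype as the single term, two-sided, with Benjamini–Hochberg adjustment over all 15039 peaks. Folds were taken from that scale, and those of low peaks are therefore understated. The fit was tested on simulated data. Nothing in the labels says that libraries came from separate mice, so p-values measure the spread between libraries. Annotation was GENCODE vM21 (GRCm38), and the gene ID was found in it for 12668 of 12686 peaks with one. Gene start and end were identical to those of the table for 8764 of these 12668 (69.2%). The transcript starts and exons given above are those of vM21. Coordinates are as in the table.

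Some genes of the pathway list are not reported here and were left out of its counts. The genes, the pathway and marker lists and the tests were chosen with earlier results of these data known. Named are the listed genes, with values for those with a peak, and, for likeness, the closest peaks by correlation. Alternatives were other pseudocounts, filters and scalings, eBayes without a trend, limma-voom on recovered counts, a replicate block and leaving out each library.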

Additional observations from a re-analysis of the deposited data

How the results depend on the processing

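Over 11 results and 149 alternative values, 134 kept their direction and their side of the threshold or, for counts, stayed within 1.5 times the count reported. For single peaks this threshold was an adjusted p under 0.05 in limma. Aacs was therefore counted as kept also where its unadjusted p rose over 0.05. The 11 results are not independent. Slc16a1, Oxct1 and Acat1 have 1 peak each, so the sum over each gene largely repeats the result of its peak. On leaving out a library, the log2 difference ran from -0.10 to 0.08 at Oxct1 (0.06 without CtrlCre replicate 3 and 0.08 without Cpt1bcKO replicate 3, also for the sum over the gene), from -0.17 to -0.07 at Slc16a1, from 0.02 to 0.23 at Acat1 and from 0.48 to 0.70 at the peak inside Bdh1. The peak inside Bdh1 kept 0.62 in eBayes without a trend but lost its call there, as it did without Cpt1bcKO replicate 3. Over its 15 alternatives its adjusted p in limma ran from 0.00485 to 0.197. The count of pathway peaks at an adjusted p under 0.05 was 1 and became 0 without a trend and 1 to 2 on leaving out a library (2 without CtrlCre replicate 3). At an unadjusted p under 0.05 it was 2 and became 1 without a trend and 1 to 2 on leaving out a library (1 without CtrlCre replicate 1 or 2 or Cpt1bcKO replicate 1 or 3, where Aacs was lost). The cause was not tested. Counting pathway peaks over an annotated start under any name, an alternative chosen after seeing the data, gave 3 of 10 tested peaks (30.0%) at an unadjusted and 1 at an adjusted p under 0.05, against 2 of 6 (33.3%) and 1 by name. Calls over all peaks were 441, against 43 without a trend, 503 with limma-voom, 338 over peaks that averaged 50 or more, and 229 to 431 on leaving out a library (229 without CtrlCre replicate 1, 246 without Cpt1bcKO replicate 3 and 288 without Cpt1bcKO replicate 2).

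Same-numbered libraries had correlations of 0.076, -0.081 and 0.11 between their deviations from the genotype means, and 3 of 6 libraries correlated best with their own number, so they were not taken as pairs. A replicate block gave 370 calls over all peaks, log2 differences of -0.11, -0.03 and 0.12 at Slc16a1, Oxct1 and Acat1 and 0.62 at the peak inside Bdh1, where the adjusted p was 0.00485 in limma, and it changed no call at these peaks or in the pathway list.

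The 95% interval at Acat1 spans folds of 0.908 to 1.30, so neither a fall to 0.908-fold nor a rise to 1.30-fold was excluded. The peak of Bdh1 is shared with an antisense gene, and that of Oxct1 with the noncoding BC037032 on the other strand.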

Other observations

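Several genes of the pathway had a start under a peak that carries another name. The peak shared by the starts of Slc16a6, a monocarboxylate transporter of the MCT family, and Arsg had mean normalized counts of 161 ± 18.8 in CtrlCre and 189 ± 10.1 in Cpt1bcKO (SD, n = 3 each), a log2 difference of 0.24 with an unadjusted p of 0.0423 and an adjusted p of 0.361 in limma. The peak shared by Sirt3, a mitochondrial deacetylase, and Psmd13 had means of 249 and 259 and a log2 difference of 0.06. Emb, which encodes the partner embigin of MCT2, shared a low peak with Gm17509, with normalized counts of 10 to 40 in CtrlCre and 19 to 42 in Cpt1bcKO. A further peak of 5570 bases over other starts of Ppargc1a carried no name and had means of 106 ± 22.2 and 81.7 ± 20.6 (SD, n = 3 each), a log2 difference of -0.38 with an unadjusted p of 0.0504 and an adjusted p of 0.391 in limma. No peak by name or over a start was found for Slc5a8, Hmgcll1, Acat3, Bdh2, Oxct2a, Oxct2b, Fgf21, Hcar2 and Ffar3.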
